A study of Mus musculus with 16 samples.

Results

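The genes described here are 10 genes of the neuromuscular junction, the synapse between a motor nerve ending and a muscle fibre. They were chosen by symbol, with earlier results of these data known. They comprise the acetylcholine receptor subunits Chrna1, Chrnb1, Chrnd and Chrne, and the receptor-clustering genes Musk, Rapsn and Dok7. The esterase genes Ache and Colq and the adhesion molecule gene Ncam1 complete the set. All 10 of the 10 were found among the 11710 genes of the count table, and all 10 were among the 11709 genes left after the filter on low counts. RNA of whole mouse rotator cuff muscle was sequenced in 16 samples, 4 in each of 4 groups. The groups were unoperated C57BL/6J mice (BL6), C57BL/6J mice with tenectomy and denervation (a cut of the tendon together with loss of the nerve supply of its muscle), unoperated MRL/MpJ mice (MRL), and MRL/MpJ mice with the same operation. MRL is an inbred strain known for unusual wound healing, and the labels name no engineered allele. Tendon and nerve were cut in the same animals, so the effects of the 2 injuries cannot be told apart. The labels name the supraspinatus and the series design names the infraspinatus, and the age of the mice and the time after surgery are not given in the sources used here. Nothing in the labels says whether the 4 samples of a group came from 4 mice, so the p-values measure the spread between these samples, which may be technical.

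In adult muscle the receptor is a pentamer of alpha (Chrna1, present in 2 copies per receptor), beta (Chrnb1), delta (Chrnd) and epsilon (Chrne) chains, and the fetal form has gamma (Chrng, not analysed here) in place of epsilon. Nerve-derived agrin binds LRP4 on the fibre, LRP4 activates the kinase MuSK, the adaptor Dok-7 sustains that activity, and rapsyn anchors receptors under the nerve ending. Acetylcholinesterase, tethered by the collagen tail that Colq encodes, ends the signal. In textbook accounts of pure denervation, the genes of the alpha, beta and delta subunits and Ncam1 become active along the whole fibre. The myogenic factor myogenin and electrical silence take part in that response.

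The libraries held 24323862 to 43552964 counts assigned to genes. Levels are given as CPM, counts per 1000000 counts of the sample after trimmed-mean scaling, and the lowest count behind any value of the 10 genes was 59 (Musk). Markers of muscle fibres were all detected and summed to 94878 to 132828 CPM in unoperated BL6, 41835 to 109283 in operated BL6, 87591 to 99530 in unoperated MRL and 55650 to 72901 in operated MRL, and the muscle label matches these defining markers. A total of 3 libraries stood apart. Replicate 4 of operated BL6 had the lowest fibre marker sum and the highest fibroblast and macrophage marker sums (3130 and 143 CPM). Replicate 1 of unoperated MRL had a macrophage marker sum of 106 CPM. Replicate 4 of operated MRL had 11.8% of its counts from mitochondrial genes, a share within the 10.97% to 14.2% of unoperated samples. The other operated samples had 17.4% to 24.9%. Where leaving out one of these libraries moved a called surgery effect of a junction gene by over 1.5 times or ended its call, the value without it is given. For markers of cell types no such values are given. In whole muscle, fewer cells of a type and less RNA per cell cannot be told apart.

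Operated muscle showed no common direction for the junction genes. Chrnb1 and Ncam1 were higher after surgery in both strains, Chrna1, Musk and Rapsn were lower in both, and Dok7 passed the test in neither. In BL6, 7 of the 10 passed the test at an adjusted p under 0.05 (edgeR quasi-likelihood, Benjamini-Hochberg over all genes), 2 higher and 5 lower, with a median log2 fold change over the 10 of −0.17. In the same comparison 67.9% of all genes tested were called, 35.1% higher and 32.8% lower, with a median of 0.04. In MRL, 7 of the 10 were called, 4 higher and 3 lower, with a median of −0.05, against 45% of all genes (22.3% higher and 22.7% lower) and a median of 0.01. The BL6 share is thus near the background. Samples did not overlap between operated and unoperated muscle for 1 gene higher and 3 lower in BL6, against 27.5% and 29.2% of all genes, and for 3 higher and 3 lower in MRL, against 17% and 16.7%. The BL6 count stayed between 6 and 8 when any single library was left out, whereas the MRL count fell to 3 without replicate 2 or replicate 4 of unoperated MRL or replicate 1 or replicate 3 of operated MRL, and to 4 without replicate 3 of unoperated MRL. It also fell to 4 when libraries were scaled by total counts alone. Calls among the 59 measured genes of the synaptic lists given below moved too when single libraries were left out. They ranged from 39 to 46 in BL6 (43 with all libraries) and from 21 to 38 in MRL (31 with all libraries). The share of all genes called under these settings is not given here, so the fall in MRL is not shown to be particular to the 10 genes.

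**Figure D1:**
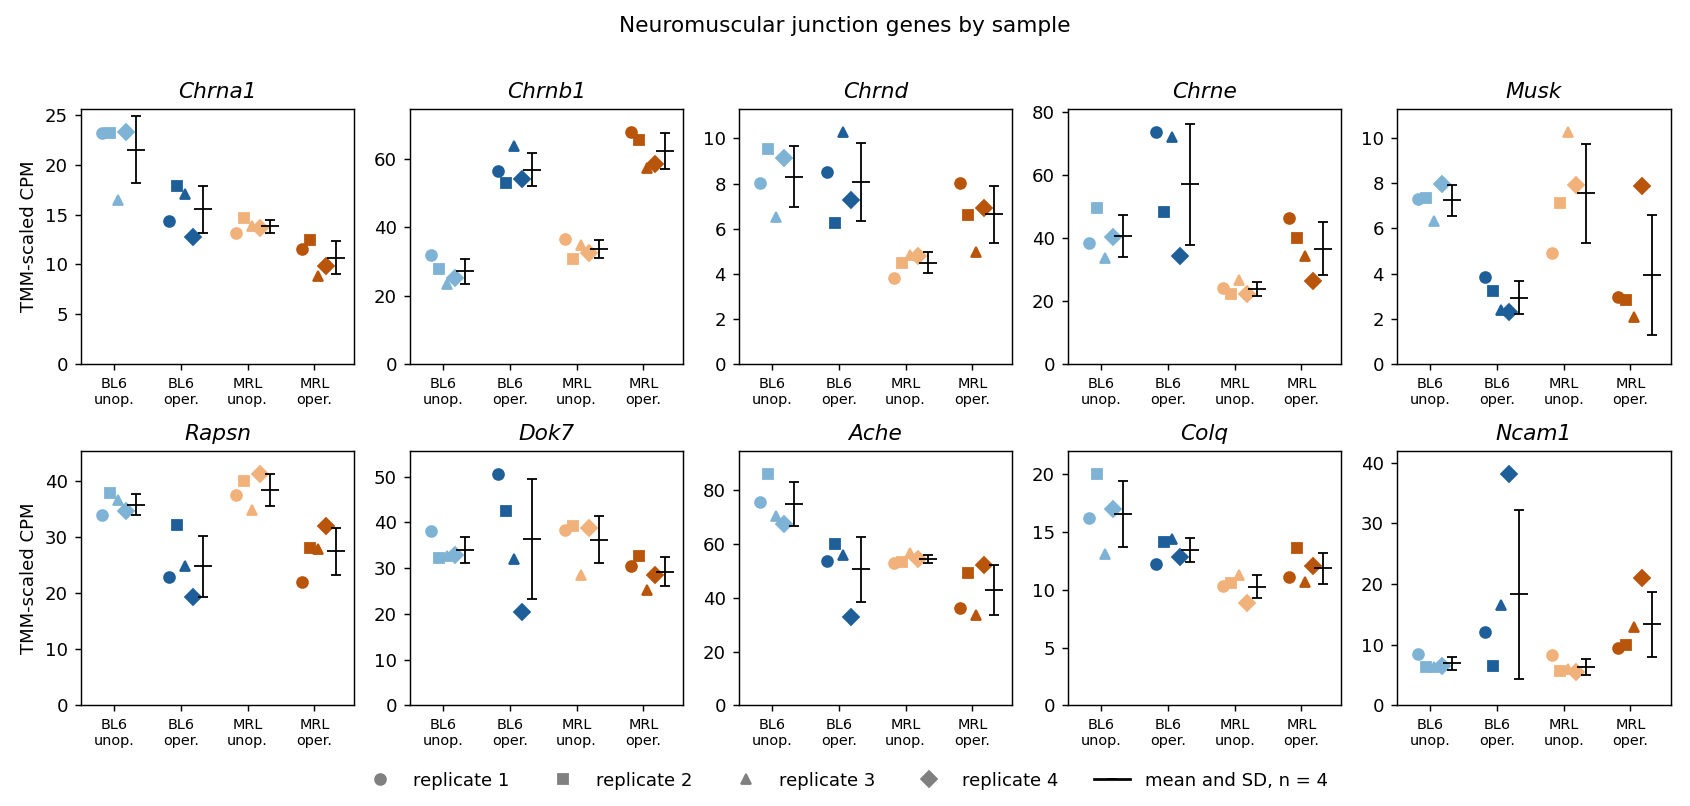
Level of each of the 10 genes in every sample, as CPM on a linear axis from 0, for the 4 groups in columns. Each point is 1 sample, its shape gives the replicate number, and the black mark and bar give the group mean and SD (n = 4). Chrnb1 lies between 23.5 and 36.6 CPM in the 8 unoperated samples and between 53.1 and 67.8 CPM in the 8 operated ones, whereas Rapsn is lower in every operated sample than in every unoperated one of its strain, and 1 operated MRL sample stands above the others for Musk.

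The receptor subunit genes moved in different directions. Chrnb1, which encodes the beta subunit (ENSMUSG00000041189, GRCm38 chromosome 11, 69784036 to 69795943, minus strand), read 32.0, 27.9, 23.5 and 25.1 CPM in unoperated BL6 replicates 1 to 4, and 56.6, 53.1, 63.7 and 54.2 CPM in operated BL6. In MRL it read 36.6, 30.6, 34.8 and 32.4 CPM without surgery and 67.8, 65.7, 57.3 and 58.6 CPM with it. Every operated sample lay above every unoperated sample in both strains. The log2 fold change was 1.07 (SE 0.11, adjusted p = 8.77e-06) in BL6 and 0.89 (SE 0.11, adjusted p = 0.00024) in MRL, and the call held under all 25 alternative settings in each strain.

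Chrna1, which encodes the acetylcholine-binding alpha subunit (ENSMUSG00000027107, chromosome 2, 73563215 to 73580338, minus strand), went the other way. Its level in unoperated BL6 was 23.2, 23.2, 16.5 and 23.3 CPM, and in operated BL6 it was 14.4, 17.9, 17.1 and 12.8 CPM. Replicate 3 of unoperated BL6 fell within the range of the operated samples and the other unoperated samples lay above it. In MRL the levels were 13.1, 14.6, 13.9 and 13.7 CPM without surgery and 11.6, 12.5, 8.84 and 9.87 CPM with it, and these ranges did not overlap. Its change on the log2 scale was −0.47 (SE 0.14, adjusted p = 0.00754) in BL6, called under all 25 alternatives. In MRL it was −0.37 (SE 0.14, adjusted p = 0.0426), and that call was lost under 10 of 25 alternatives, with −0.34 (adjusted p = 0.071) without replicate 4 of operated MRL.

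Chrne, the gene of the adult epsilon subunit (ENSMUSG00000014609, chromosome 11, 70614883 to 70619216, minus strand), read 38.5, 49.6, 33.7 and 40.3 CPM in unoperated BL6 and 73.5, 48.2, 72.1 and 34.1 CPM in operated BL6. Replicates 1 and 3 of operated BL6 were above all unoperated samples and replicates 2 and 4 were among them. The log2 fold change of 0.49 (SE 0.22, adjusted p = 0.0557) did not pass the test, and it did pass under 9 of 25 alternatives. In MRL the levels were 24.2, 22.1, 26.8 and 22.3 CPM without surgery and 46.3, 39.9, 34.2 and 26.3 CPM with it. Of the operated MRL samples only replicate 4 reached down into the unoperated range, and the log2 fold change was 0.62 (SE 0.22, adjusted p = 0.0321), lost under 5 of 25 alternatives. On GENCODE M21, Chrne overlaps 4930544D05Rik on the opposite strand, and whether the counting used strand is not given in the sources used here, so its counts are uncertain to that extent.

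Chrnd, the gene of the delta subunit (ENSMUSG00000026251, chromosome 1, 87190607 to 87200070, plus strand), had levels of 8.02, 9.55, 6.53 and 9.12 CPM in unoperated BL6 and 8.52, 6.24, 10.3 and 7.25 CPM in operated BL6. These ranges overlapped throughout, and the log2 fold change was −0.04 (SE 0.18, adjusted p = 0.845). In MRL, Chrnd read 3.82, 4.47, 4.84 and 4.79 CPM without surgery and 8.04, 6.59, 4.97 and 6.92 CPM with it. The lowest operated MRL sample was just above the highest unoperated one, and the log2 fold change was 0.56 (SE 0.18, adjusted p = 0.021), lost under 2 of 25 alternatives. The surgery effect on Chrnd in MRL minus that in BL6 was 0.61 (SE 0.25) with an unadjusted p of 0.0305 and an adjusted p of 0.278, so a difference between the strains was not shown.

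Relative to Chrna1, Chrnb1 was higher in every operated sample than in any unoperated sample of its strain. Levels were divided by the length of each gene's annotated exons (RPKM, here CPM per kilobase of exon) so that subunits can be set side by side. The ratio of Chrnb1 to Chrna1 on this scale was 1.87 to 2.48 in unoperated BL6, 5.15 to 7.36 in operated BL6, 3.63 to 4.83 in unoperated MRL and 9.15 to 11.2 in operated MRL. None of the 4 ranges overlapped. Chrne relative to Chrna1 was 4.31 to 5.54 in unoperated and 6.94 to 13.3 in operated BL6, and 3.92 to 5.02 in unoperated and 6.91 to 10.4 in operated MRL, so operated samples lay above unoperated ones in both strains. Chrnd relative to Chrna1 was 0.389 to 0.468 in unoperated and 0.706 to 0.936 in operated MRL. In BL6 it was 0.462 to 0.548 without surgery and 0.466 to 0.803 with it, where replicate 2 of the operated samples stayed at the unoperated level. These ratios were computed after the single-gene results were known and carry no test.

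**Figure D2:**
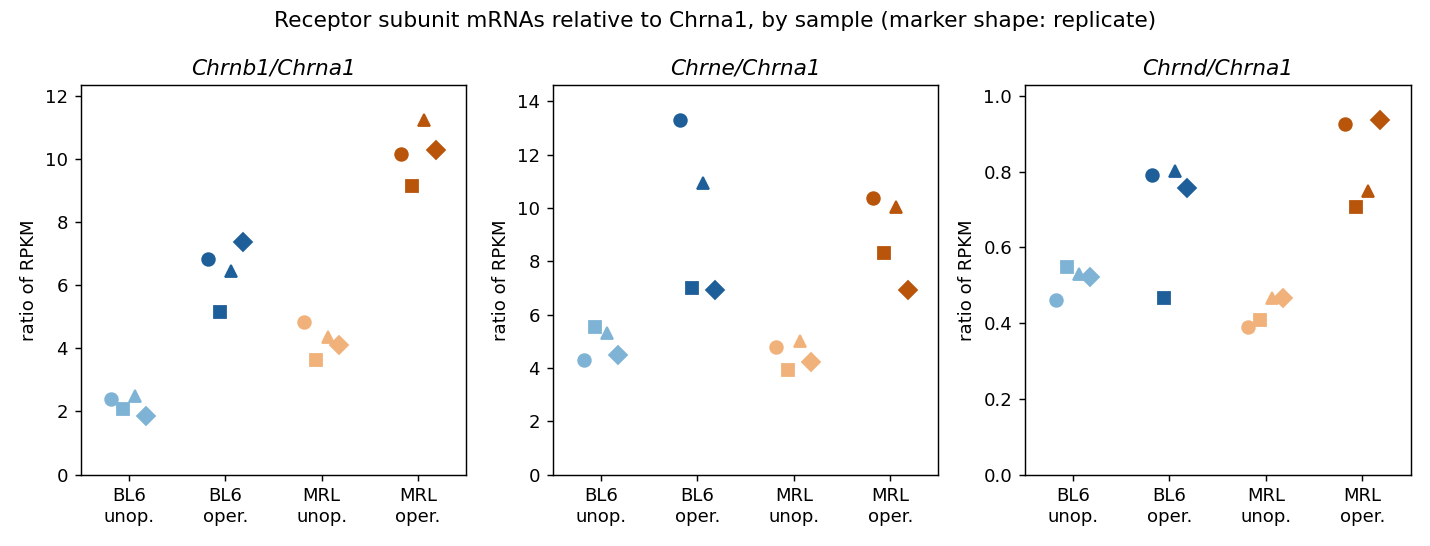
Ratio of receptor subunit levels to Chrna1 in each of the 16 samples, as a ratio of RPKM on linear axes from 0, with 1 point per sample and the replicate number as marker shape. For Chrnb1 the 4 groups occupy separate ranges, from 1.87 to 2.48 in unoperated BL6 up to 9.15 to 11.2 in operated MRL.

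The promoters of the subunit genes that rose and fell are shown because genes of one receptor went opposite ways. RefSeq promoter entries on GRCm38.p6, 250 bases before to 50 bases after the start, were matched for 6 of the 10 genes (Chrna1, Chrnb1, Chrne, Musk, Dok7 and Ache), and Chrnd, Rapsn, Colq and Ncam1 had none. Each line below reads 5′ to 3′ on the gene's strand, and capitals mark the E-box CANNTG, the core bound by myogenic factors such as myogenin, and CCGGAA, the core of the N-box bound by GABP (the ETS factor of synaptic nuclei), searched on both strands. The stretches are chr2:73580289-73580588 (minus strand) for Chrna1, chr11:69795888-69796187 (minus strand) for Chrnb1, chr11:70619145-70619444 (minus strand) for Chrne and chr4:58285712-58286011 (plus strand) for Musk.
Chrna1: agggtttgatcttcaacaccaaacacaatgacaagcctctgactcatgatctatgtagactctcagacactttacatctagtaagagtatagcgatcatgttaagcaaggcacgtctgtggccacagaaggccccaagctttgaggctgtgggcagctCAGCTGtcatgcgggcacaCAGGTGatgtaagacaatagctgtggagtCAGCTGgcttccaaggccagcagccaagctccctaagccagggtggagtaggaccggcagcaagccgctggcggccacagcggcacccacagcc
Chrnb1: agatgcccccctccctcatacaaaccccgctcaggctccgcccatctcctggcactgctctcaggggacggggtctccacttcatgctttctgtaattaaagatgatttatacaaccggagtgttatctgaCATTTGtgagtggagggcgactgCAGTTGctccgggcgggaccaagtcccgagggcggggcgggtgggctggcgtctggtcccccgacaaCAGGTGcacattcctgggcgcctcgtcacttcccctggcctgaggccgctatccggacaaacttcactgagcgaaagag
Chrne: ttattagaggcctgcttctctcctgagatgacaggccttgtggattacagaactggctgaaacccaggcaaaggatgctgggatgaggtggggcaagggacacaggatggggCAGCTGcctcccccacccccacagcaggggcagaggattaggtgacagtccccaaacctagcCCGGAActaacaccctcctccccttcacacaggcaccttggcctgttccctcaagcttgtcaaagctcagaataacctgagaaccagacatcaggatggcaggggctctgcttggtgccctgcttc
Musk: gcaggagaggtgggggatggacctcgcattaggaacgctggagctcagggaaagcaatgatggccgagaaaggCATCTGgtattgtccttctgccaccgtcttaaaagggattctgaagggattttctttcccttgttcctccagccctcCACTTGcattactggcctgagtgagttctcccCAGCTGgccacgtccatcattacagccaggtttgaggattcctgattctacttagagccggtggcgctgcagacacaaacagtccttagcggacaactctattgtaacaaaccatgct
Counted from the start, Chrna1 held E-boxes at −92, −73 and −44, of which the first and last read CAGCTG, and Chrnb1 held E-boxes at −119, −96 and −29, none of them CAGCTG. Musk had E-boxes at −177, −100 and −68. Chrne had 1 E-box, CAGCTG at −138, and CCGGAA at −76, the only CCGGAA among the entries of these genes. No CCGGAA overlapped an E-box, and every CAGCTG is also a CANNTG. Among all 32851 promoter entries of this length 72.3% held CANNTG, 16.3% held CAGCTG and 14.9% held CCGGAA. E-boxes were thus present both in the gene that rose (Chrnb1) and in those that fell (Chrna1 and Musk), and a match describes letters only.

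Of the genes that gather receptors under the nerve ending, Musk and Rapsn were lower after surgery and Dok7 did not pass the test. Musk, the kinase gene (ENSMUSG00000057280, chromosome 4, 58285960 to 58374303, plus strand), read 7.30, 7.35, 6.34 and 7.98 CPM in unoperated BL6 and 3.83, 3.22, 2.40 and 2.30 CPM in operated BL6. All operated samples were lower, by a log2 fold change of −1.31 (SE 0.34, adjusted p = 0.00368), and the call held under all 25 alternatives. In MRL, Musk read 4.92, 7.10, 10.3 and 7.91 CPM without surgery and 2.96, 2.84, 2.09 and 7.90 CPM with it. Replicates 1 to 3 of operated MRL were below every unoperated sample and replicate 4 was among them. The log2 difference by the model was −0.92 (SE 0.34, adjusted p = 0.0371). It was −1.52 (adjusted p = 0.00022) without that replicate, the library with the low mitochondrial share, and the call was lost under 8 of 25 alternatives, all of which kept the replicate.

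Rapsn, the gene of the scaffold rapsyn (ENSMUSG00000002104, chromosome 2, 91035620 to 91045729, plus strand), had levels of 33.9, 37.9, 36.6 and 34.6 CPM in unoperated BL6 and 22.9, 32.1, 24.9 and 19.2 CPM in operated BL6. In MRL it had 37.4, 40.0, 34.8 and 41.3 CPM without surgery and 21.9, 28.1, 27.8 and 31.9 CPM with it. Operated and unoperated samples did not overlap in either strain. The log2 fold changes were −0.53 (SE 0.14, adjusted p = 0.00353) in BL6 and −0.48 (SE 0.14, adjusted p = 0.0119) in MRL, and both calls held under all 25 alternatives. Rapsn overlaps the transcript Gm13778 on the opposite strand. Relative to Chrna1 on the RPKM scale, Rapsn was 3.56 to 5.41 in unoperated and 3.55 to 4.38 in operated BL6, and 6.11 to 7.34 in unoperated and 4.61 to 7.87 in operated MRL, so the ratio of this scaffold to the alpha subunit overlapped between operated and unoperated samples of each strain.

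Dok7, which encodes the cytoplasmic activator of MuSK (ENSMUSG00000044716, chromosome 5, 35056766 to 35087839, plus strand), read 38.1, 32.3, 32.6 and 32.9 CPM in unoperated BL6 and 50.6, 42.4, 31.9 and 20.5 CPM in operated BL6. The operated samples spread on both sides of the unoperated ones, and replicate 4, with the lowest fibre marker sum, was lowest. The log2 fold change was 0.10 (SE 0.20, adjusted p = 0.683). In MRL, Dok7 had 38.3, 39.2, 28.5 and 38.8 CPM without surgery and 30.6, 32.7, 25.2 and 28.5 CPM with it, a log2 fold change of −0.31 (SE 0.20, adjusted p = 0.217). The ratio of Musk to Dok7 (RPKM) was 0.217 to 0.275 in unoperated BL6 and 0.0851 to 0.127 in operated BL6. In MRL it was 0.145 to 0.407 without surgery and 0.0941 to 0.314 with it, which overlapped.

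The esterase genes were lower after surgery in BL6. Ache, the gene of acetylcholinesterase (ENSMUSG00000023328, chromosome 5, 137287519 to 137294466, plus strand), read 75.6, 86.0, 70.2 and 67.5 CPM in unoperated BL6 and 53.6, 59.9, 55.7 and 32.9 CPM in operated BL6. In MRL it read 53.1, 53.4, 56.5 and 54.2 CPM without surgery and 36.1, 49.2, 33.7 and 52.3 CPM with it. The ranges did not overlap in either strain, although replicate 4 of operated MRL came within 1 CPM of the lowest unoperated sample. Its change on the log2 scale was −0.57 (SE 0.17, adjusted p = 0.00887) in BL6 and −0.34 (SE 0.17, adjusted p = 0.112) in MRL. The MRL value passed the test under 3 of 25 alternatives, with −0.46 (adjusted p = 0.0381) without replicate 4 of operated MRL and −0.34 (adjusted p = 0.04) without replicate 4 of operated BL6. Ache overlaps Gm42456 on the opposite strand and Mir8116 on its own strand.

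Colq, which encodes the collagen tail of the esterase (ENSMUSG00000057606, chromosome 14, 31523082 to 31591343, minus strand), had 16.2, 20.1, 13.1 and 17.0 CPM in unoperated BL6 and 12.2, 14.2, 14.4 and 12.9 CPM in operated BL6. Replicate 3 of the unoperated samples lay within the operated range. The log2 difference by the model was −0.31 (SE 0.13, adjusted p = 0.0446), and the call was lost under 12 of 25 alternatives, with −0.20 (adjusted p = 0.177) without replicate 2 of unoperated BL6 and −0.29 (adjusted p = 0.0772) without replicate 4 of operated BL6. In MRL, Colq read 10.3, 10.6, 11.3 and 8.88 CPM without surgery and 11.1, 13.7, 10.7 and 12.1 CPM with it, a log2 fold change of 0.21 (SE 0.13, adjusted p = 0.185). The effect in MRL minus that in BL6 was 0.52 (SE 0.18) with an unadjusted p of 0.0118 and an adjusted p of 0.215. Colq per Ache (RPKM) was 0.227 to 0.305 in unoperated and 0.277 to 0.476 in operated BL6, which overlapped, and 0.199 to 0.242 in unoperated and 0.281 to 0.384 in operated MRL, which did not. Colq overlaps Gm24057 and Gm49387 on its own strand, so some of its reads could be shared.

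The summed muscle fibre markers, of which 3 of 5 were called lower in BL6 and 2 of 5 in MRL and none was at 0, fell alongside the genes that were lower after surgery. The fibre marker Mb went the other way without a call. Its mean went from 4441 to 5631 CPM in BL6 and from 4803 to 6351 CPM in MRL, with overlapping samples. The part of fibre content in the lower levels of Chrna1, Musk, Rapsn, Ache and Colq was not tested. The adipocyte markers rose in all 4 of 4 genes in each strain, from summed levels of 208 to 279 CPM to 1209 to 1656 CPM in BL6 and from 262 to 369 CPM to 1086 to 1902 CPM in MRL. Endothelial markers were called higher in 2 of 3 genes in BL6 and 3 of 3 in MRL, with sums of 226 to 309 and 441 to 580 CPM in unoperated and operated BL6 and 171 to 232 and 239 to 563 CPM in MRL. Macrophage markers were called higher in 3 of 5 genes in BL6 and 0 of 5 in MRL. Their sums were 12.9 to 31.1 and 24.2 to 143 CPM in BL6 and 21.7 to 106 and 32.6 to 59.4 CPM in MRL. Replicates 1 to 4 of operated BL6 had 38.6, 24.2, 42.2 and 143 CPM. Replicate 2 was thus within the unoperated range, and replicate 4 alone set the top. Of 4 fibroblast markers 1 was called, Col1a1 in BL6 (log2 fold change 2.86, adjusted p = 0.00269), and the sums were 423 to 827 and 534 to 3130 CPM in BL6 and 812 to 1356 and 955 to 1884 CPM in MRL. Col1a1 had 70.4 to 157 CPM in unoperated BL6 and 192 to 2161 CPM in operated BL6, where the median was 350 CPM. The highest value was that of replicate 4, a library that stood apart, so the size of this change leans on it. No marker of these lists was at 0, and their part was not tested either.

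Ncam1, whose neural cell adhesion molecule covers denervated fibres and is also made by Schwann cells and satellite cells (ENSMUSG00000039542, chromosome 9, 49502136 to 49798925, minus strand), was higher after surgery, with operated samples that spread widely. It read 8.50, 6.39, 6.29 and 6.52 CPM in unoperated BL6 and 12.0, 6.43, 16.6 and 38.2 CPM in operated BL6. Replicate 2 of the operated samples stayed among the unoperated ones and replicate 4 was above all other samples. The log2 fold change was 1.41 (SE 0.40, adjusted p = 0.00625), and without replicate 4 it was 0.75 (adjusted p = 0.0421). In MRL, Ncam1 had 8.25, 5.60, 5.97 and 5.44 CPM without surgery and 9.50, 9.99, 13 and 21.0 CPM with it. The groups did not overlap, and the log2 fold change was 1.09 (SE 0.40, adjusted p = 0.0388), lost under 6 of 25 alternatives, with 0.78 (adjusted p = 0.127) without replicate 4. Ncam1 overlaps the antisense gene Gm11149.

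Markers of other cells that carry NCAM moved with surgery. Of 7 Schwann cell markers, all detected, 7 were called higher in BL6 and 5 in MRL, and their summed level went from 82.1 to 109 CPM to 219 to 544 CPM in BL6 and from 72.1 to 134 CPM to 127 to 364 CPM in MRL. Across operated BL6 replicates 1 to 4 the Schwann sum was 544, 219, 323 and 510 CPM. Replicate 2 had both the lowest Schwann sum and the lowest Ncam1, whereas replicate 1 had the highest Schwann sum and replicate 4 the highest Ncam1. Across operated MRL replicates it was 364, 143, 256 and 127 CPM, and replicate 4, with the highest Ncam1, had the lowest Schwann sum. Of 4 satellite cell markers 2 were measured, and they were called lower in BL6 (2 of 2) and in 1 of 2 in MRL, with summed levels of 26.1 to 30.8 and 15 to 20.9 CPM in unoperated and operated BL6 and 19.4 to 23.1 and 15.6 to 23.3 CPM in MRL. In MRL, Cdh15, the larger part of the sum, went from a mean of 18.1 to 14.2 CPM. Pax7 was not called there and went the other way, from a mean of 3.47 to 4.01 CPM. No measured marker of either list was at 0, and their part in the Ncam1 result was not tested.

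**Figure D3:**
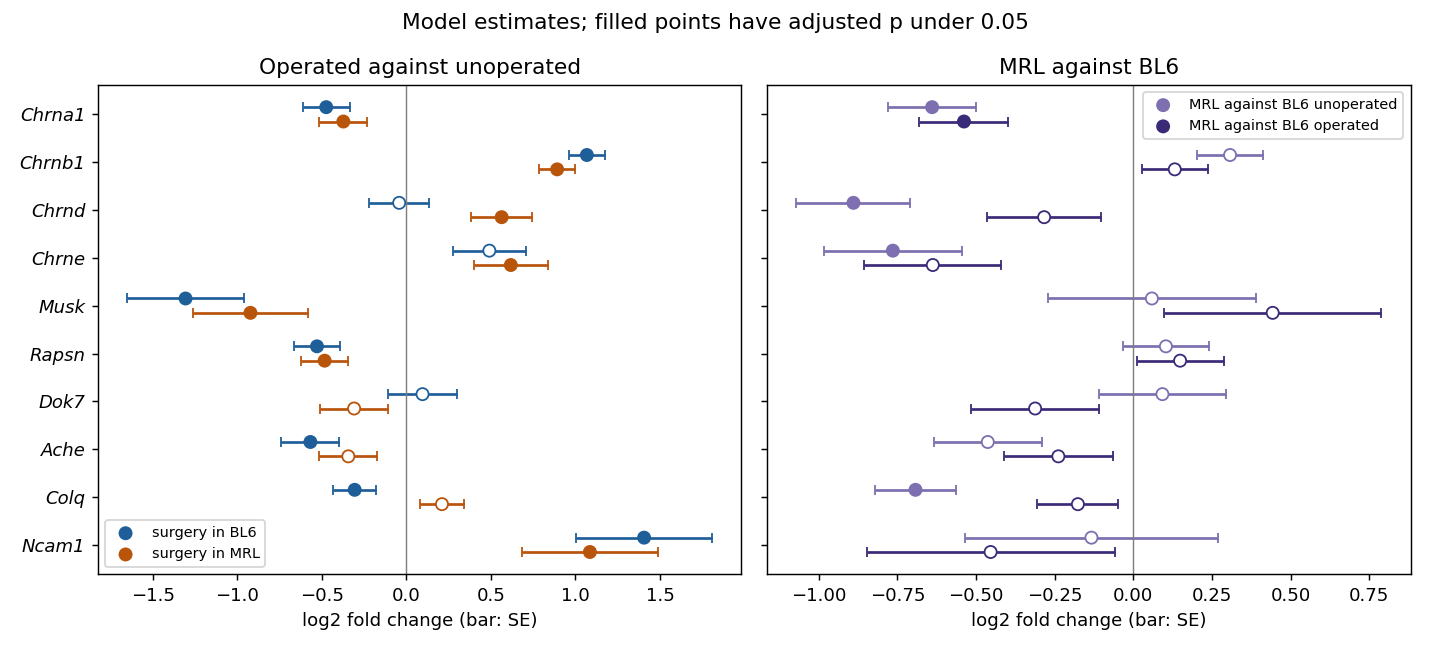
Model log2 fold changes of the 10 genes with SE bars, for surgery in each strain (left) and for MRL against BL6 in unoperated and operated muscle (right); filled points have an adjusted p under 0.05 and open points do not. Chrnb1 is near 1 in both strains with short bars, Ncam1 and Musk have the longest bars, and in unoperated muscle the filled strain differences are all below 0.

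None of the 10 genes passed the test for a surgery effect that differed between strains (edgeR interaction term). At an unadjusted p under 0.05 there were 2, Chrnd and Colq, and DESeq2 also called 0. Over all genes 0.248% were called. A gene called in 1 strain alone, as Ache and Colq were in BL6 and Chrnd and Chrne in MRL, is therefore not shown to respond differently. For Musk the interaction was 0.38 (SE 0.48) and for Ncam1 it was −0.32 (SE 0.56), so sizeable differences in either direction lie within their errors. Both changed sign when single operated libraries were left out: Musk was −0.21 without replicate 4 of operated MRL, and Ncam1 was 0.34 without replicate 4 of operated BL6.

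In unoperated muscle, several junction genes had a lower level in MRL than in BL6. Of the 10 genes, 4 were called and all 4 were lower in MRL (Chrna1, Chrnd, Chrne and Colq), against 10.4% of all genes called, 5.02% higher and 5.36% lower. The median of the 10 was −0.30 and that of all genes 0.01. Chrnd differed by −0.89 (SE 0.18, adjusted p = 0.00393), with 6.53 to 9.55 CPM in BL6 and 3.82 to 4.84 CPM in MRL. Colq differed by −0.69 (SE 0.13, adjusted p = 0.00186), with 13.1 to 20.1 and 8.88 to 11.3 CPM. Chrna1 differed by −0.64 (SE 0.14, adjusted p = 0.0066) and Chrne by −0.76 (SE 0.22, adjusted p = 0.0355). The first of these calls, together with Chrnd and Colq, held under all 25 alternatives, and that of Chrne was lost under 6. Ache, at −0.46 (SE 0.17, adjusted p = 0.106), did not pass although its samples did not overlap either. In all, 5 of the 10 had every unoperated MRL sample below every unoperated BL6 sample, as did 12.9% of all genes. Scaled by total counts alone, 3 of the 10 were called lower, while 70.3% of the calls over all genes were then higher in MRL in place of 48.4%.

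Chrnb1 did not share this direction. Its unoperated difference was 0.31 (SE 0.11, adjusted p = 0.0801), so the subunit genes called lower were those of alpha, delta and epsilon. Musk (0.06, SE 0.33), Rapsn (0.10, SE 0.14) and Dok7 (0.09, SE 0.20) gave no call, with adjusted p-values of 0.938, 0.697 and 0.825. The fibre marker sums were 94878, 106781, 132828 and 128543 CPM in unoperated BL6 and 89160, 99530, 87591 and 88208 CPM in unoperated MRL, so replicate 1 of BL6 lay within the MRL range and the others above it. None of the 5 fibre markers was called between the strains. Acta1 (−0.27, SE 0.21) and Tnnt3 (−0.29, SE 0.25) had every MRL sample below every BL6 sample, and Myh4 (−0.61, SE 0.40) overlapped. Ckm overlapped too, at 18383 to 25816 CPM in BL6 and 16832 to 22070 CPM in MRL. Mb had the higher mean in MRL, 4803 CPM against 4441 CPM in BL6, with overlapping samples. The part of fibre content in the lower levels of Chrna1, Chrnd, Chrne and Colq was not tested.

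After surgery 1 of the 10 was called between the strains, against 12.9% of all genes (7.6% higher and 5.27% lower). Chrna1 was lower in MRL by −0.54 on the log2 scale (SE 0.14, adjusted p = 0.0196), with 12.8 to 17.9 CPM in operated BL6 and 8.84 to 12.5 CPM in operated MRL, so every MRL sample was below every BL6 sample, as for 6.16% of all genes. The count was 0 without replicate 3 of operated BL6 or replicate 3 of operated MRL, 2 without replicate 1 of operated MRL and 3 without replicate 4 of operated BL6. With total counts alone 72.2% of the calls over all genes were higher in MRL, in place of 59.1%. Chrne differed by −0.64 (SE 0.22, adjusted p = 0.0682) and passed under 5 of 25 alternatives. Chrnd (−0.28, SE 0.18, adjusted p = 0.34) and Colq (−0.18, SE 0.13, adjusted p = 0.413) did not pass.

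Ordered by level per exon length in unoperated BL6, Chrne was highest at 24 ± 3.96 RPKM (SD, n = 4), followed by Rapsn at 19.8 ± 1.03, Ache at 16.2 ± 1.76, Chrnb1 at 10.7 ± 1.46 and Dok7 at 7.95 ± 0.645. Below these came Chrna1 at 4.91 ± 0.771, Colq at 4.36 ± 0.750, Chrnd at 2.53 ± 0.410, Musk at 1.92 ± 0.179 and Ncam1 at 0.799 ± 0.122 RPKM. The samples of Chrne and Rapsn, of Chrna1 and Colq, and of Chrnd and Musk overlapped, and the other neighbours in this order did not. In operated MRL, Chrnb1 was first at 24.6 ± 2.06 RPKM and Chrne followed at 21.7 ± 5.03 RPKM, with overlapping spreads. In operated BL6, Chrne was first at 33.7 ± 11.3 RPKM and Chrnb1 moved from the fourth place to the second at 22.5 ± 1.89 RPKM. Musk was lowest in both operated groups, at 0.778 ± 0.192 RPKM in BL6 and 1.05 ± 0.704 RPKM in MRL. The length used is that of all annotated exons of a gene, which can exceed that of its muscle transcript, so the order between genes is approximate.

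The other genes of the synapse, grouped in 6 lists by role, likewise changed in both directions. Of 65 genes listed, 59 were measured, and Chrng, Nrg1, Erbb4, Myf5 and Prima1 were among those not analysed here. In BL6, 43 of the 59 were called, 20 higher and 23 lower, and in MRL 31, 15 higher and 16 lower. Their shares can be read against the 67.9% and 45% of all genes. The medians were 0.11 in BL6 and 0.18 in MRL.

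In the list of agrin, MuSK signalling and receptor clustering, 5 of 16 rose and 7 fell in BL6, and 5 rose and 6 fell in MRL. Nerve-derived agrin is the ligand that starts clustering, and gene counts of whole muscle do not tell which cells or forms Agrn transcripts came from. Agrn went from 28 ± 2.89 to 67.4 ± 17.5 CPM (SD, n = 4) in BL6 and from 26.5 ± 3.21 to 54.0 ± 10.5 CPM in MRL. Its log2 fold changes were 1.27 (adjusted p = 5.13e-05) and 1.02 (adjusted p = 0.0013), opposite in sign to those of Musk. Lrp4, the agrin receptor, was at 14.7 ± 2.70 and 14.5 ± 5.43 CPM in unoperated and operated BL6 and at 12.1 ± 1.37 and 13.5 ± 2.88 CPM in MRL, and did not pass (adjusted p = 0.955 and 0.595). Pdzrn3, a ubiquitin ligase that lowers surface MuSK, fell by 1.20 in BL6 (adjusted p = 0.000169) and by 0.96 in MRL (adjusted p = 0.0031). Fyn, a kinase that phosphorylates receptor clusters, rose by 1.45 (adjusted p = 6.86e-05) and 0.88 (adjusted p = 0.00568).

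Synaptic basal lamina and dystrophin-type complex genes rose in 6 and fell in 3 of 15 in BL6, and rose in 4 and fell in 2 in MRL. Dag1, the gene of dystroglycan, a laminin and agrin receptor, fell from 313 ± 13.2 to 138 ± 10.7 CPM in BL6 and from 281 ± 30.9 to 152 ± 62.8 CPM in MRL (adjusted p = 0.000141 and 0.00368). Dtna, the gene of alpha-dystrobrevin, fell by 1.16 (adjusted p = 0.000175) and by 0.60 (adjusted p = 0.0247, lost under 4 of 25 alternatives) on the log2 scale. Lama4, a synaptic laminin chain gene that vessels and fat also express, rose by 1.06 (adjusted p = 0.00212) and 0.77 (adjusted p = 0.024, lost under 4 of 25 alternatives). Col13a1, a transmembrane collagen gene of the junction, had a log2 fold change of 1.19 in BL6 (adjusted p = 0.0458), lost under 15 of 24 alternatives, and 0.46 (adjusted p = 0.365) without replicate 4 of operated BL6 and 1.19 (adjusted p = 0.0521) without replicate 4 of operated MRL. In MRL it had 0.49 (adjusted p = 0.429), with 0.89 without replicate 1 of unoperated MRL. Sntb1, a syntrophin gene, had 0.56 in BL6 (adjusted p = 0.0561), with 0.32 without replicate 4 of operated BL6. In MRL it had 0.72 (adjusted p = 0.0287), lost under 6 of 24, with 0.58 (adjusted p = 0.0799) without replicate 4 of operated MRL.

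Of 7 measured genes of neuregulin and ETS transcription, the route that keeps receptor genes active in synaptic nuclei, 3 rose and 2 fell in BL6 and 4 rose and 2 fell in MRL. Erbb2, a neuregulin receptor subunit that Schwann cells also carry, rose from 3.96 ± 0.907 to 9.45 ± 2.58 CPM in BL6 and from 4.0 ± 0.404 to 7.07 ± 0.579 CPM in MRL (adjusted p = 7.08e-05 and 0.00445). Gabpa, the DNA-binding chain of the N-box factor GABP, fell from 38.5 ± 2.24 to 18.4 ± 2.48 CPM in BL6 (adjusted p = 3.84e-05) and from 37.5 ± 5.36 to 28.4 ± 6.21 CPM in MRL (adjusted p = 0.0356, lost under 8 of 25 alternatives). Its partner Gabpb1 rose by 0.48 and 0.46 (adjusted p = 0.00119 and 0.00414), and Cdk5, a kinase that neuregulin activates, rose by 0.77 and 0.53 (adjusted p = 0.000248 and 0.00791).

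Activity-dependent transcription genes, which relay electrical activity to receptor genes, rose in 3 and fell in 7 of 13 in BL6 and rose in 2 and fell in 3 in MRL. Myog, the gene of myogenin, rose from 3.06 ± 1.24 to 12.7 ± 4.05 CPM in BL6 and from 3.05 ± 1.16 to 11 ± 2.98 CPM in MRL, with log2 fold changes of 2.05 (adjusted p = 9.26e-05) and 1.85 (adjusted p = 0.0012). Each operated sample (8.02 to 17.9 CPM) was above each unoperated one (1.85 to 4.77 CPM). Runx1, a transcription factor gene induced on denervation, rose by 1.79 in BL6 (adjusted p = 0.000901) and 1.19 in MRL (adjusted p = 0.0199). The MRL call was lost under 3 of 24 alternatives, with 0.88 (adjusted p = 0.0669) without replicate 4 of operated MRL. Mef2a, a muscle transcription factor gene, fell by 1.13 (adjusted p = 3.61e-05) and by 0.73 (adjusted p = 0.00276). Dach2, a corepressor of Myog, fell in BL6 from 3.39 ± 0.737 to 0.669 ± 0.153 CPM (log2 fold change −2.35, adjusted p = 2.02e-05). In MRL it was at 0.244 ± 0.0952 CPM without and 0.173 ± 0.0381 CPM with surgery (adjusted p = 0.289), close to the 0.0718 to 0.122 CPM that 3 counts give. In unoperated muscle Dach2 was lower in MRL by −3.76 on the log2 scale (adjusted p = 4.6e-07), and in operated muscle by −1.90 (adjusted p = 0.00171).

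Of the other receptor, esterase and channel genes 3 were measured. Bche, the gene of butyrylcholinesterase, an enzyme that also splits acetylcholine, read 13.7, 12.2, 11.6 and 13.4 CPM in unoperated BL6 and 5.13, 5.11, 5.87 and 5.69 CPM in operated BL6. In MRL it read 8.59, 6.29, 9.42 and 7.75 CPM without surgery and 7.55, 7.42, 6.92 and 9.29 CPM with it. All operated BL6 samples were below the unoperated ones, and the MRL groups overlapped. Its change on the log2 scale was −1.22 in BL6 (adjusted p = 1.3e-05) and −0.04 in MRL (adjusted p = 0.835), and their difference was 1.19 (SE 0.19, adjusted p = 0.0311), the only interaction called among the 59 genes. That call was lost under 12 of 24 alternatives, 10 of which left out a single library, with an adjusted p of up to 0.0779 among these. Scn4a, the gene of the sodium channel that fires the fibre, fell from 601 ± 79.9 to 124 ± 35.4 CPM in BL6 and from 392 ± 105 to 150 ± 99.5 CPM in MRL (adjusted p = 9.26e-05 and 0.00676). Kcnn3, a potassium channel gene of denervated fibres, had log2 fold changes of 1.16 (adjusted p = 0.0317) in BL6 and 1.05 (adjusted p = 0.0643) in MRL. The BL6 call was lost under 7 of 25 alternatives, with 0.84 (adjusted p = 0.121) without replicate 4 of operated BL6. The MRL value passed under 3 of 25 and was 0.41 (adjusted p = 0.377) without replicate 4 of operated MRL.

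The glycosylation genes, whose loss causes congenital myasthenia, rose in 2 and fell in 2 of 5 in BL6, and fell in 2 in MRL. Gfpt1, which supplies the sugar precursor for glycosylated receptor, fell from 55.2 ± 4.51 to 19.0 ± 3.23 CPM in BL6 and from 35.7 ± 5.83 to 23.6 ± 5.90 CPM in MRL (adjusted p = 1.3e-05 and 0.011, the latter lost under 1 of 25 alternatives). Alg2 fell by 0.70 and by 0.57 (adjusted p = 0.000144 and 0.00273). Gmppb, the gene of a mannose activating enzyme, rose by 0.68 in BL6 (adjusted p = 0.00199) and had 0.29 in MRL (adjusted p = 0.155).

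**Figure D4:**
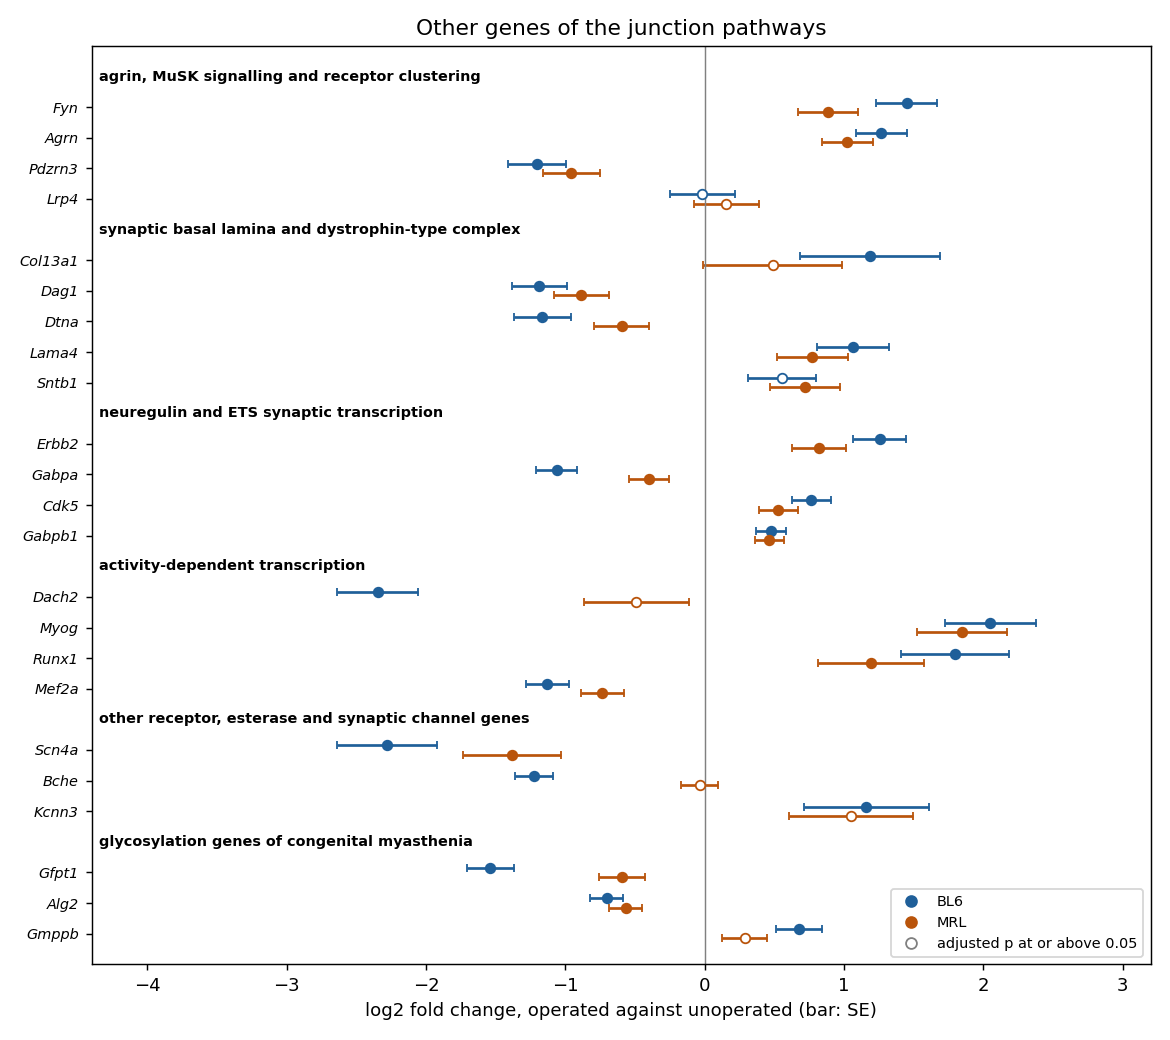
Model log2 fold changes of operated against unoperated muscle for the measured genes named in the text from the 6 lists of synaptic genes. Genes are grouped by list, with BL6 and MRL side by side, and filled points have an adjusted p under 0.05. Apart from Agrn, Lrp4 and Myog, which were always kept, these are called genes with the largest absolute changes of their list in either strain. The other measured genes of the lists are not shown. Points lie on both sides of 0 in each list, with Myog at 2.05 and 1.85 and Scn4a at −2.28 and −1.38 among the farthest.

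Likeness of pattern was measured as the root mean square difference of log2 CPM, each gene centred on its own mean, over the 16 samples and among genes of at least 5 CPM, so a smaller value is a closer match. The closest gene of all was Fam53a for Rapsn (0.10), Mrps27 for Ache (0.14), Ublcp1 for Chrna1 (0.15), Slc25a36 for Chrnb1 (0.16), Snrnp35 for Dok7 (0.16) and Zfp952 for Colq (0.16). Matches were looser for Musk (Msi2, 0.22), Ncam1 (Emilin1, 0.23), Chrnd (Gramd1b, 0.23) and Chrne (Ice1, 0.25). Among the 10 themselves, Chrna1 and Ache were each other's nearest (0.24), and Chrnd was nearest to Colq (0.27). Ncam1 (nearest Chrnb1, 0.58), Chrnb1 (nearest Chrne, 0.57) and Musk (nearest Rapsn, 0.53) were the farthest from the others. This distance also grows with a gene's own spread over the samples, which was largest for Ncam1 (0.76) and Musk (0.74). Each of the 10 had a closer match outside the set than within it. The outside search left out the 10 genes and covered far more genes, so this does not tell whether the subunit genes vary together. These values describe 16 samples that share 4 group means, and carry no test.

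The authors' deposited table of comparisons gave 3 of the 10 genes as higher and 4 as lower after surgery in BL6 at a false discovery rate under 0.05, and the same numbers in MRL. In the authors' deposited table Chrne passed in BL6 (log2 fold change 0.56, false discovery rate 0.0261) and not in MRL (0.50, 0.0587), the reverse of the result here. The authors' deposited table also gave Ache as lower in MRL (−0.45, 0.0284), Colq as not passing in BL6 (−0.30, 0.0667), and smaller Ncam1 change in BL6 (0.91) than in MRL (1.39). For Chrnb1 the authors' deposited table had 1.06 in BL6 and 0.90 in MRL. Between unoperated strains it had 3 of the 10 lower in MRL and none higher, and between operated strains 2 lower and none higher.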

How the data were processed

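Whole-number counts per gene of 16 samples were used as the authors deposited them, without normalization. Per the submitters' processing notes FastQC, STAR, edgeR and the build mm10 (GRCm38) were used, and the counting program, its use of strand and all versions are not given in the sources used here. The authors' deposited table adds, per the file headers, an average log2 CPM, log2 fold changes, p-values and false discovery rates.

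Groups come from the strain and surgery labels. In R 4.3.3 with edgeR 4.0.16, filterByExpr (minimum count 10) kept 11709 of 11710 genes, TMM factors scaled the counts, and edgeR's quasi-likelihood test was run with a mean for each group over the 16 samples jointly. P-values were Benjamini-Hochberg adjusted over all genes, with calls under 0.05. The table holds no gene below a mean of 0.955 CPM, so genes of very low expression were not analysed here. RPKM were computed from these CPM and GENCODE M21 exon lengths. A count of 3 gives 0.0718 to 0.122 CPM in these libraries, a floor that covers counting error only. Samples of one group differed by more than sampling noise, so none was counted as a duplicate.

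Alternatives were DESeq2 1.42.0, other scalings and filters, only the compared groups, the replicate block, and libraries left out. The model was tested on simulated data. The genes, lists and ratios were chosen with earlier results of these data known. All 10 genes are named, and from each list the 3 called genes with the largest absolute log2 fold change after surgery in each strain, with Agrn, Lrp4 and Myog always.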

Additional observations from a re-analysis of the deposited data

Results flagged for a closer look

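In 5 of the 40 sets of 4 samples (10 genes in 4 groups) 1 sample lay far from the other 3 by Dixon's gap test at its 95% critical value, where chance alone gives about 1 in 20. Chrna1 read 16.5 CPM in replicate 3 of unoperated BL6 against 23.2 to 23.3 CPM in the others. Dok7 read 38.1 CPM in replicate 1 of unoperated BL6 against 32.3 to 32.9 CPM, and 28.5 CPM in replicate 3 of unoperated MRL against 38.3 to 39.2 CPM. Ncam1 read 8.50 CPM in replicate 1 of unoperated BL6 against 6.29 to 6.52 CPM. Musk read 7.90 CPM in replicate 4 of operated MRL against 2.09 to 2.96 CPM.

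For Bche the surgery effect in MRL minus that in BL6 was 1.19 on the log2 scale (adjusted p = 0.0311, edgeR), a difference between the strains that passed the interaction test. That call was lost under 12 of 24 alternatives, with an adjusted p of up to 0.0779 with single libraries left out, 0.0669 with the replicate block and 0.18 with total counts alone. All 4 operated BL6 samples were below all 4 unoperated ones, and the MRL samples overlapped.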

How the results depend on the processing

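Of the 50 log2 fold changes of the 10 genes, 23 kept direction and side of the threshold under every alternative, and over 1240 recomputed values 1135 did so, 52 lost the call, 25 gained it and 28 changed sign. Members called ranged over single libraries left out from 6 to 8 (surgery in BL6), 3 to 8 (surgery in MRL), 0 to 0 (interaction), 3 to 5 (unoperated strains) and 0 to 3 (operated strains). Pathway genes called ranged from 39 to 46, 21 to 38, 0 to 1, 4 to 9 and 3 to 10. Total counts alone, which moved the median of all genes by 0.14 after surgery in BL6 and by 0.14 between unoperated strains, left 4 members called after surgery in MRL and 0 pathway interactions. Pathway interactions called were 3 with DESeq2 and 2 without 3 libraries (an alternative chosen after seeing the data: both doubted libraries and replicate 4 of operated MRL). Pathway genes called between unoperated strains were 15 with only the compared groups and 10 without 3 libraries, and between operated strains 1 and, without both doubted libraries (replicate 1 of unoperated MRL and replicate 4 of operated BL6), 11. Members called between operated strains were 2 with DESeq2, 0 with only the compared groups, and 3 without both doubted or without 3 libraries.

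All 14 results that changed sign were without a call, and the cause was not tested. Surgery in BL6: Chrnd was 0.10 with total counts, 0.0215 with the 5 CPM filter, 0.000819 without both doubted libraries and −0.18 to 0.0624 with single libraries left out, Dok7 was −0.11 to 0.29 with single libraries left out, and Lrp4 was 0.18, 0.0550 and −0.20 to 0.18 (total counts, filter, single libraries). Surgery in MRL: Bche was 0.0171, 0.0075, 0.0079 and −0.14 to 0.0519 under the same 4 settings as Chrnd. Interaction, with single libraries and then without both doubted libraries: Chrne −0.0488 to 0.27 and −0.0380, Rapsn −0.0488 to 0.195 and −0.0571, Ncam1 −0.64 to 0.34 and 0.50. Without 3 libraries the interaction was −0.13 for Rapsn, 0.18 for Ncam1, −0.0401 for Ache and −0.46 for Musk (−0.21 to 0.59 with single libraries). Unoperated strains: Musk −0.13 to 0.21 with single libraries, Ncam1 0.0065 with total counts. Operated strains: Musk −0.16 to 0.65 with single libraries and −0.25 without 3 libraries, Rapsn −0.0251 without 3 libraries, Ncam1 −0.78 to 0.20 with single libraries and 0.20 without both doubted libraries.

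The replicate block left 7, 7, 0, 4 and 1 members called in the 5 comparisons and 44, 30, 0, 6 and 6 pathway genes. Same-numbered samples correlated at a mean of −0.14 to 0.16 over comparisons, and at most 2 of 4 samples correlated best with their own number. For surgery in BL6 the mean was −0.14, against 0.05 for different numbers. It was 0.09 against −0.04 for surgery in MRL, 0.16 against −0.05 between unoperated strains and 0.16 against −0.04 between operated strains. With 4 samples a group these values neither show nor exclude that the numbers pair the samples. Under the block Bche lost its interaction call (adjusted p = 0.0669). Among the 10 genes Musk and Ncam1 have the largest standard errors, so small differences in them were not detectable with 4 samples a group.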
